A study of Schizosaccharomyces pombe with 14 samples.

Results

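The genes described here lie in the outer 90 kb of the 4 ends of Schizosaccharomyces pombe (fission yeast) chromosomes I and II, next to the telomeres. A gene was taken if its whole span in the deposited table lay within 90 kb of an end on the ASM294v2 genome and its systematic name was that of a protein-coding gene or pseudogene. The rule also leaves out the genes dak2 and eno102, which lie in these windows. Both were called higher in Pac1-AA (log2 fold changes 2.31 for dak2 and 2.24 for eno102, edgeR) and in pac1-ts at both temperatures, and no count given here includes them. This gave 132 of the 7049 rows of the table. Of these, 38 lay at the left and 28 at the right end of chromosome I, and 35 at the left and 31 at the right end of chromosome II. They stand for 119 loci, because 13 pseudogenes are listed in pairs of rows, and these 26 rows held 0 counts in every library. In all, 29 rows had 0 counts in all 14 libraries.

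Subtelomeres are the gene-bearing regions just inside the telomere repeats. In fission yeast the part next to the telomere is packed in heterochromatin marked by histone H3 lysine 9 methylation, and further inward comes a condensed region, so that most genes there are transcribed at a low level under rich conditions. Many encode transporters, cell surface proteins and metabolic enzymes that are used in starvation or on unusual nutrients, and several families, such as the RecQ-type helicases Tlh1 and Tlh2, exist as near-identical copies at several ends. Pac1 is the fission yeast RNase III, an endonuclease that cuts double-stranded RNA and acts in processing of ribosomal, small nuclear and small nucleolar RNA. Dis3 is the catalytic subunit of the RNA exosome and degrades RNA from its 3′ end, and Dhp1 is the nuclear 5′ to 3′ exonuclease.

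RNA-seq was made from 3 sets of cultures in Edinburgh minimal medium. In the anchor-away set, 2 Pac1-AA libraries carried Pac1-FRB-GFP::natMX6, which rapamycin draws out of the nucleus, and 2 CTL libraries did not. Both strains were h- torSE::KanMX6 fkh1::URA+ ura4-D18 leu1-32 ade6-M210 with the nmt1-rpl13-2FKBP12-leu1+ anchor at leu1-32, and both received 2.5 µg/ml of rapamycin for 2 h at 30°C. In the pac1-ts set, 2 clones with the pac1-G1024A allele and 1 WT strain, all h+ ade6M210 leu1-32 ura4-D18 his3-D1, were sampled after 2 h at 37°C and at 30°C. The third set was grown at 30°C in 60 µM thiamine, which represses the nmt81 promoter. It held 1 library each of Pnmt81-dis3, of Pnmt81-dhp1, of Pnmt81-dhp1 Pnmt81-dis3 and of WT (h+ ade6-M216). All 4 were leu1-32 ura4-D18 his3-D1, and the promoter was joined to its gene as p81nmt1::kanMX6-dis3 in the first, P81nmt1-dhp1::kanMX6 in the second, and P81nmt1-dhp1::kanMX6 with P81nmt1-dis3::natMX6 in the third. The Pnmt81-dhp1 strain was h- ade6-M210, and for the other Pnmt81 strains the labels leave the mating type and the ade6 allele open. The labels do not name the culture behind each anchor-away library, while the study's text calls the libraries of these strains biological replicates.

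Some libraries did not match their labels in every respect. The library labelled Pnmt81-dis3 held 398 CPM of dhp1 (CPM: counts scaled to a common library size, by TMM factors within each set) and 165 CPM of dis3, the one labelled Pnmt81-dhp1 114 and 114 CPM, and the one labelled Pnmt81-dhp1 Pnmt81-dis3 372 and 248 CPM, against 187 and 210 CPM in WT in thiamine. Neither transcript was lower than in WT in the library labelled with both promoters, and these libraries are called by their labels only. Clone 1 of pac1-ts held 420 CPM of ura4 at 37°C and 354 CPM at 30°C, although its label gives ura4-D18, whereas clone 2 held 0.0567 and 0 CPM. Results of the pac1-ts set are therefore also given without 1 library of a clone where that ended a call. No fit left out the libraries of a clone at 37°C and 30°C together. The pac1 transcript stood at 157 and 154 CPM in Pac1-AA, against 97.0 and 94.2 CPM in CTL, and at 124 and 122 CPM in pac1-ts at 30°C, against 248 CPM in WT. Library totals were 19877576 to 53258725 counts in the anchor-away set, 15997568 to 17743083 in the pac1-ts set and 6836270 to 9470347 in the thiamine set.

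Most of the genes were transcribed at a low level. Of the 106 loci that are not pseudogenes, 68 and 67 stood under 1 FPKM (counts scaled to library size and divided by gene length) in the 2 CTL libraries, where their median was 0.373 and 0.231 FPKM. The median of the 5038 other protein-coding genes was 38.7 and 38.5 FPKM in the same libraries. The level was higher further from the telomere. Of the 33 loci within 30 kb of an end, 29 stood under 1 FPKM, with a median of 0.0926 FPKM. Between 30 and 60 kb it was 29 of 42, with a median of 0.317 FPKM, and between 60 and 90 kb 9 of 31, with a median of 2.27 FPKM. The share of loci with a copy of at least 95% identity elsewhere in the genome ran the other way, with 28 of 33, 20 of 42 and 2 of 31. Fragments that map to several places are not counted by the default of the counting tool, and loci with a copy had medians of 0.0989 and 0.0874 FPKM in CTL, against 1.5 and 1.87 FPKM for those without one. The part of lost fragments in the low levels was not tested.

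**Figure D1:**
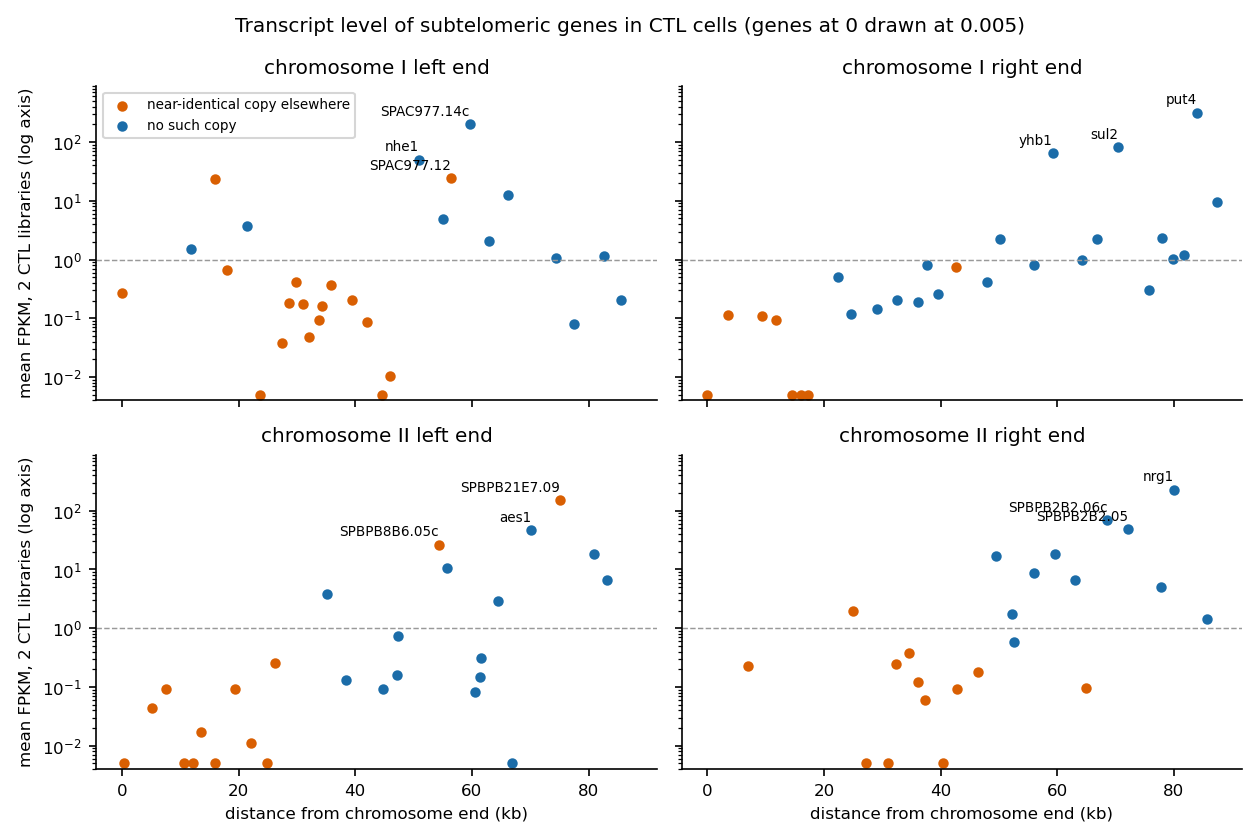
Mean FPKM over the 2 CTL libraries (log axis) against the distance from the chromosome end in kb, 1 point per locus, for each of the 4 ends. Orange points have a near-identical copy elsewhere and blue points have none; the dashed line marks 1 FPKM. Most points within 30 kb lie under the line, and the 3 highest genes of each end, which are named, lie further in.

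The 3 genes with the highest FPKM in CTL differed from end to end. At the right end of chromosome I, put4, the proline transporter, had 312 and 323 FPKM in CTL, sul2, a sulfate transporter, 78.2 and 86.8 FPKM, and yhb1, a nitric oxide dioxygenase, 65.5 and 64.5 FPKM. At the right end of chromosome II the highest gene was nrg1, an amino-acid permease, with 227 and 229 FPKM in CTL. It was followed by SPBPB2B2.06c, a phosphoprotein phosphatase, with 66.7 and 72.3 FPKM, and by SPBPB2B2.05, a glutamine amidotransferase, with 49.2 and 48.0 FPKM. At the left end of chromosome I, SPAC977.14c, an aldo-keto reductase, had 200 and 205 FPKM, and nhe1, a sodium/proton antiporter, 49.9 and 49.8 FPKM. SPAC977.12, an L-asparaginase, had 25.7 and 23.3 FPKM. The left end of chromosome II was led by SPBPB21E7.09, an L-asparaginase, with 146 and 154 FPKM, and by aes1, of the phenazine biosynthesis family, with 49.9 and 44.3 FPKM. Here SPBPB8B6.05c, another L-asparaginase, had 27.8 and 24.8 FPKM. The asparaginase genes come in near-identical pairs, SPBPB21E7.09 with SPAC186.03 and SPBPB8B6.05c with SPAC977.12, so their counts are uncertain.

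The same genes stood at other levels in the other WT strains. put4 had 22.4 FPKM in WT at 37°C, 42.5 FPKM in WT at 30°C and 5.32 FPKM in WT in thiamine, and nrg1 30.1, 5.21 and 25.5 FPKM. SPAC212.08c, a GPI-anchored protein gene 11.8 kb from the left end of chromosome I, had 1.46 and 1.59 FPKM in CTL, against 93.5 FPKM in WT at 30°C and 1.38 FPKM in WT in thiamine. These sets differ in strain, treatment and, for pac1-ts, in library kit, so that strain and kit cannot be told apart. The whole low range differed between sets too. The genes under 1 FPKM numbered 25 to 29 of 106 in the pac1-ts libraries and 33 and 34 in their WT libraries, against 66 to 68 in the anchor-away set. The 5th percentile of the other protein-coding genes was 5.07 to 8.49 FPKM in the pac1-ts set and 2.99 to 3.41 FPKM in the anchor-away set.

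The first comparison asked which of these genes change when Pac1 is drawn out of the nucleus. SPAPJ695.02, gdt1 and SPAC977.15 rose in Pac1-AA, and SPAC869.04, SPAC869.01 and SPAC869.03c fell. A change counted as a call when it exceeded 2-fold, a log2 fold change of 1 in either direction, at an adjusted p under 0.01 in the quasi-likelihood test of edgeR, with adjustment by Benjamini-Hochberg over the whole table. Of 63 genes with enough counts for the test, 3 rose (4.76%), against 0.616% of all 6328 genes tested, and 3 fell (4.76%), against 0.221%. The median log2 fold change was 0.03, against 0.005 over all genes. The rises numbered 5 without either CTL library, and the falls 1 without either Pac1-AA library. With library totals in place of TMM factors, which shifted the median of all genes by 0.106, 7 rose and 2 fell. Of the 11 tested genes within 30 kb of an end edgeR called 0, with 3 at an unadjusted p below 0.05, and DESeq2 called 0 of 29. The share of all genes at that unadjusted p is not given here.

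SPAPJ695.02, an uncharacterized gene on chromosome I (74452 to 76721, ASM294v2), had 10.6 and 11.1 CPM in Pac1-AA, against 2.29 and 2.58 CPM in CTL. Both Pac1-AA libraries lay above both CTL libraries, at a log2 fold change of 2.13 (SE 0.115, adjusted p = 2.01e-06, edgeR). It lies in a stretch of the left end of chromosome I in which further genes moved in the same direction. SPAC977.15, of the dienelactone hydrolase family, had 5.90 and 5.55 CPM in Pac1-AA, against 2.03 and 1.77 CPM in CTL, a log2 fold change of 1.61 (SE 0.142, adjusted p = 3.06e-05). SPAC977.17, of the MIP superfamily of channels, had 84.8 and 84.9 CPM in Pac1-AA, against 42.9 and 48.7 CPM in CTL. Its log2 fold change of 0.87 (adjusted p = 2.43e-06) stayed under the threshold of 1, as did that of SPAC977.14c, 0.53 (adjusted p = 2.08e-06). The distances of these 4 genes from the end ran from 59.6 to 74.5 kb.

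At the right end of chromosome I, 3 genes with names beginning SPAC869 fell in Pac1-AA. yhb1 (SPAC869.02c), which lies between SPAC869.03c and SPAC869.01, went the other way. It had 198 and 191 CPM in Pac1-AA, against 137 and 134 CPM in CTL. SPAC869.04, a formamidase-like gene, had 0.461 and 0.560 CPM in Pac1-AA, against 2.71 and 2.89 CPM in CTL, and the groups did not overlap. Its log2 fold change was -2.45 (SE 0.199, adjusted p = 1.77e-05, edgeR). SPAC869.01, an amidase, had 0.596 and 0.596 CPM in Pac1-AA, against 1.30 and 1.74 CPM in CTL, a log2 fold change of -1.39 (SE 0.234, adjusted p = 0.00243). SPAC869.03c, a urea transporter, had 1.13 and 0.867 CPM in Pac1-AA, against 2.19 and 1.93 CPM in CTL, a log2 fold change of -1.02 (SE 0.207, adjusted p = 0.00715). SPAC869.04 was called with each of the 4 libraries left out in turn. The calls of SPAC869.01 and SPAC869.03c did not: SPAC869.01 kept its call only without CTL replicate 1, and SPAC869.03c only without CTL replicate 2. DESeq2 called neither.

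Closer to the telomere, gdt1 (5540032 to 5541502, minus strand), which encodes a GDT1-like protein, had 4.71 and 5.15 CPM in Pac1-AA, against 1.41 and 0.995 CPM in CTL. Its log2 fold change was 2.10 (SE 0.181, adjusted p = 2.64e-05, edgeR). Its divergent neighbour SPAC186.06, an isomerase gene, had 0.538 and 0.470 CPM in Pac1-AA, against 0.156 and 0.124 CPM in CTL, with a log2 fold change of 1.86 (SE 0.419) that missed the threshold (adjusted p = 0.0124). Both genes lay higher in both Pac1-AA libraries than in either CTL library. In the RefSeq annotation of ASM294v3 their starts are 550 bases apart. The stretch next to the start of SPAC186.06 (300 bases, chrI:5541732-5542031, plus strand, ASM294v3, RefSeq) is shown because the pair moved together in several comparisons. The letters TGACGT, searched on both strands, are in capitals.
SPAC186.06 upstream: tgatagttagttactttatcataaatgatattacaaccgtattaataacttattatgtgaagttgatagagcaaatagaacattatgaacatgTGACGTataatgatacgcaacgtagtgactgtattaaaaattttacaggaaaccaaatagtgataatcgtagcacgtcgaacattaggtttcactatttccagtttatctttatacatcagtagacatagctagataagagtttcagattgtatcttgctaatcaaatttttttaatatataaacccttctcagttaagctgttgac
These letters, the core of the site known for the Atf1 stress factor, stood once in this window and in 6.03% of 5112 windows of the same length before protein-coding genes. A match describes the letters only.

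Some abundant genes moved by less than 2-fold in Pac1-AA. nrg1 had 970 and 926 CPM in Pac1-AA, against 496 and 500 CPM in CTL, without overlap and with a log2 fold change of 0.93 (adjusted p = 3.22e-07, edgeR). With library totals in place of TMM factors its value was 1.03 (adjusted p = 3.16e-07), past the fold. SPBPB21E7.09 had 235 and 240 CPM in Pac1-AA, against 372.2 and 392.1 CPM in CTL (log2 fold change -0.69, adjusted p = 9.18e-07). put4 had 554 and 575 CPM in Pac1-AA, against 703 and 729 CPM in CTL (log2 fold change -0.34, adjusted p = 1.30e-04). With no condition on the fold, 11 of the genes lay higher and 9 lower at an adjusted p below 0.01. The share of all genes that passes without the fold is not given here. These counts therefore do not show whether subtelomeric genes passed more often than others.

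**Figure D2:**
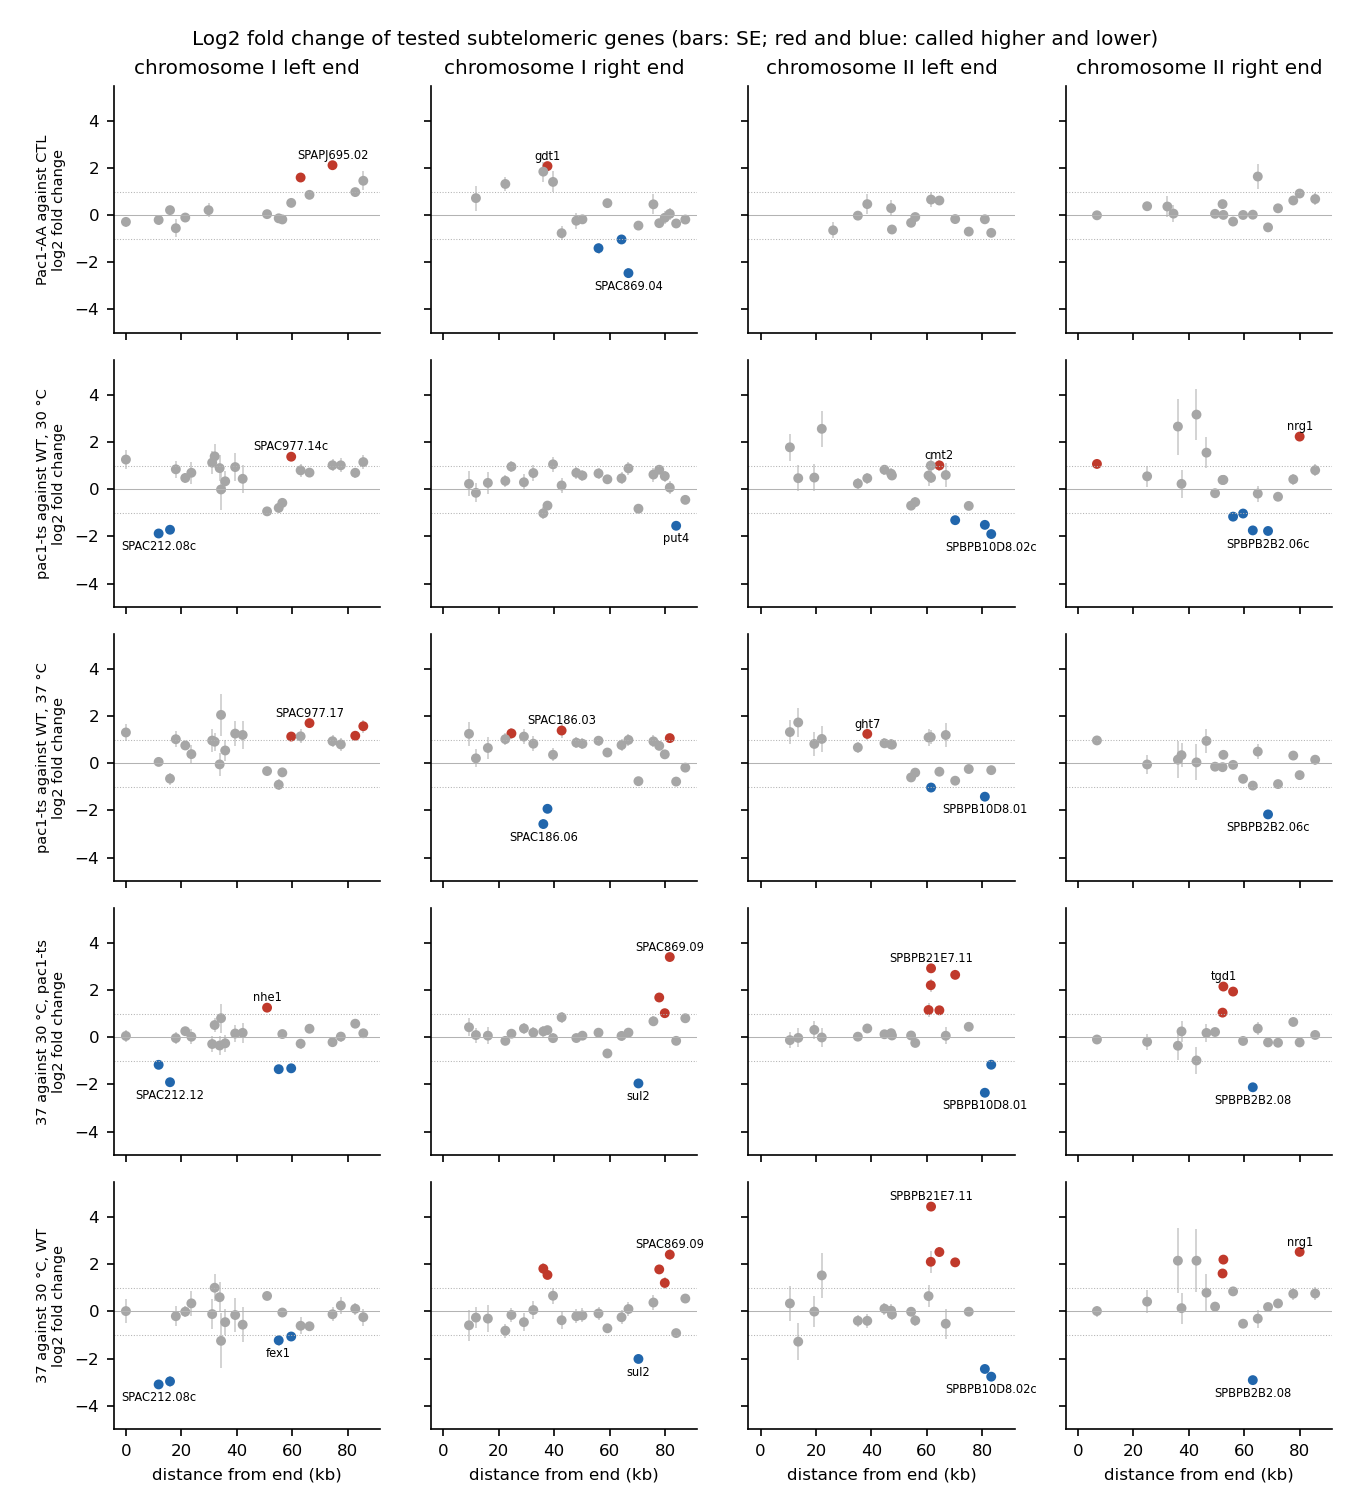
Log2 fold change (error bars: standard error) of each tested gene against its distance from the chromosome end in kb, with 1 column per end and 1 row per comparison. Red points were called higher and blue points lower. The 6 genes called in Pac1-AA lie on chromosome I, and those called in the heat shift lie at all 4 ends.

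The second comparison set the 2 pac1-ts clones against WT at 30°C, with 1 WT library, so that the spread came from the clones alone. nrg1, SPAC977.14c, tlh2 and cmt2 rose, and 10 genes fell, among them both GPI-anchored protein genes next to the left end of chromosome I and a sulphur pair at the left end of chromosome II. Of 85 genes tested, 4 rose (4.71%), against 1.62% of the 6728 genes tested, and 10 fell (11.8%), against 0.788%. With the clone as a block the numbers were 10 and 11, and the rises numbered 10 without clone 1 at 30°C, 8 without clone 1 at 37°C and 10 without clone 2 at 37°C. Of the 85, 60 lay above 0, with a median log2 fold change of 0.49, against -0.005 over all genes. Other genes of low level did so too. Among genes with a mean under 5 CPM, 23 of the 26 subtelomeric genes lay above 0 (median 0.60), and so did 664 of 803 other genes (median 0.55). At 5 to 10 CPM the median was 0.678 for subtelomeric genes and 0.456 for other genes. At 10 CPM or more it was -0.378 and -0.071.

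nrg1 had 48.7 and 59.1 CPM in pac1-ts at 30°C, against 11.4 CPM in WT (log2 fold change 2.25, SE 0.146, adjusted p = 2.94e-06, edgeR). SPAC977.14c had 959 and 868 CPM in pac1-ts, against 348 CPM in WT (log2 fold change 1.39, SE 0.121, adjusted p = 2.77e-05), the largest level of any of these genes in the set. Both clones lay above WT in both cases. tlh2, a RecQ helicase gene 6.9 kb from the right end of chromosome II, had 14.4 and 17.2 CPM in pac1-ts, against 7.47 CPM in WT (log2 fold change 1.08, adjusted p = 0.00324). It is nearly identical to a gene at the left end of chromosome I, and only 6.8% of its 50-base stretches were unique in the genome. Fragments that map to several places are not counted, so the level of tlh2 is uncertain. Its log2 fold change was 0.95 without clone 2 at 30°C, which ended the call. cmt2, a catechol O-methyltransferase gene, had 8.23 and 7.59 CPM in pac1-ts, against 3.90 CPM in WT, at a log2 fold change of 1.02 that fell under 1 without clone 1 at 30°C, with RLE factors and in DESeq2.

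Among the falls at 30°C, SPBPB10D8.02c, an arylsulfatase gene, had 36.1 and 28.3 CPM in pac1-ts, against 120 CPM in WT (log2 fold change -1.90, SE 0.126, adjusted p = 3.17e-06, edgeR). SPBPB10D8.01, the cysteine transporter gene that meets it tail to tail, had 93.8 and 69.6 CPM, against 232 CPM in WT (log2 fold change -1.51, SE 0.129, adjusted p = 2.42e-05). The ends of these transcripts overlap on opposite strands, and counting used strand. SPAC212.08c had 33.4 and 28.4 CPM in pac1-ts, against 113 CPM in WT (log2 fold change -1.87, SE 0.111, adjusted p = 1.65e-06), and the other GPI-anchored protein gene, SPAC212.12, 9.42 and 8.93 CPM, against 30.1 CPM (log2 fold change -1.72). SPAC212.12 has no unique 50-base stretch and SPAC212.08c has 48.4% unique ones. Fragments that map to several places are not counted, so the levels of SPAC212.12 and SPAC212.08c are uncertain.

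SPBPB2B2.06c, the phosphoprotein phosphatase gene, had 139 and 152 CPM in pac1-ts at 30°C, against 497 CPM in WT (log2 fold change -1.77, SE 0.0963, adjusted p = 9.10e-07, edgeR). put4 had 30.5 and 35.1 CPM, against 95.8 CPM in WT (log2 fold change -1.55, SE 0.102, adjusted p = 3.06e-06). Both clones lay under WT in every gene called lower. The rest were SPBPB2B2.08, which is uncharacterized (log2 fold change -1.74), aes1 (-1.31), gal7, the galactose-1-phosphate uridylyltransferase (-1.16), and pan5, a 2-dehydropantoate 2-reductase (-1.03). The last fell short of the fold without clone 2 at 30°C, without either clone or WT at 37°C, and with library totals.

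At 37°C, 8 genes rose in pac1-ts against WT (9.41%), against 2.26% of all genes tested, and 5 fell (5.88%), against 0.595%. With the clone as a block the numbers were 15 and 5, and 20 genes were called in all without either clone's library at 30°C. SPAC977.17 rose most, with 108 and 112 CPM in pac1-ts, against 33.5 CPM in WT (log2 fold change 1.71, SE 0.0991, adjusted p = 7.83e-07, edgeR). shu1, known for heme uptake, followed with 7.98 and 6.80 CPM, against 2.47 CPM (log2 fold change 1.58, adjusted p = 0.00232). The rest were SPAC186.03 (1.40), the pyruvate decarboxylase gene pdc102 (1.28), the hexose transporter gene ght7 (1.25), the gluconate symporter gene ght3 (1.18), SPAC977.14c (1.14) and SPAC869.09, of the Con-6 family (1.08), with both clones above WT in each. SPAC186.03 lost its call without clone 2 at 37°C, with library totals and in DESeq2. ght3 and SPAC977.14c fell under the fold without clone 1 at 37°C, and SPAC869.09 without clone 2. Of the 85 genes tested, 58 lay above 0 at 37°C, with a median log2 fold change of 0.678, against 0.004 over all genes. Under 5 CPM the median was 0.964 for subtelomeric genes and 0.477 for other genes. At 5 to 10 CPM it was 0.854 and 0.391, and at 10 CPM or more -0.262 and -0.058. The cause was not tested.

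Both genes of the divergent pair near the right end of chromosome I fell in pac1-ts at 37°C. SPAC186.06 had 4.96 and 4.48 CPM in pac1-ts, against 28.2 CPM in WT (log2 fold change -2.58, SE 0.2, adjusted p = 8.05e-06, edgeR). gdt1 had 8.97 and 8.21 CPM, against 32.8 CPM in WT (log2 fold change -1.93, SE 0.153, adjusted p = 9.24e-06). gdt1 was called both here and in Pac1-AA, in opposite directions. With the clone as a block, SPAC977.15 had a log2 fold change of 1.15 in pac1-ts at 37°C, and SPAPJ695.02 of 1.02 at 30°C. Both genes were called higher in Pac1-AA, and the main fit called neither in pac1-ts. The block takes the difference between the clones out of the spread, and WT has 1 library, so these 2 values are not counted as calls. ght3, called higher at 37°C, had a log2 fold change of 0.99 in Pac1-AA (adjusted p = 0.00256, edgeR), just under the fold, and of 1.01 in DESeq2 (adjusted p = 0.000635), past it. SPBPB2B2.06c had 121 and 131 CPM in pac1-ts at 37°C, against 566 CPM in WT (log2 fold change -2.17, SE 0.096, adjusted p = 1.09e-07). SPBPB10D8.01 had 15.96 and 16.03 CPM, against 42.6 CPM in WT (log2 fold change -1.41). SPBPB21E7.11, which is uncharacterized, had 46.2 and 57.7 CPM, against 106 CPM in WT, at a log2 fold change of -1.03, which was -0.91 without clone 1 at 37°C. The calls at 37°C and 30°C shared SPAC977.14c among the higher (12.5% of the 8 at 37°C and 25% of the 4 at 30°C), and SPBPB10D8.01 and SPBPB2B2.06c among the lower (40% of 5 and 20% of 10).

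**Figure D3:**
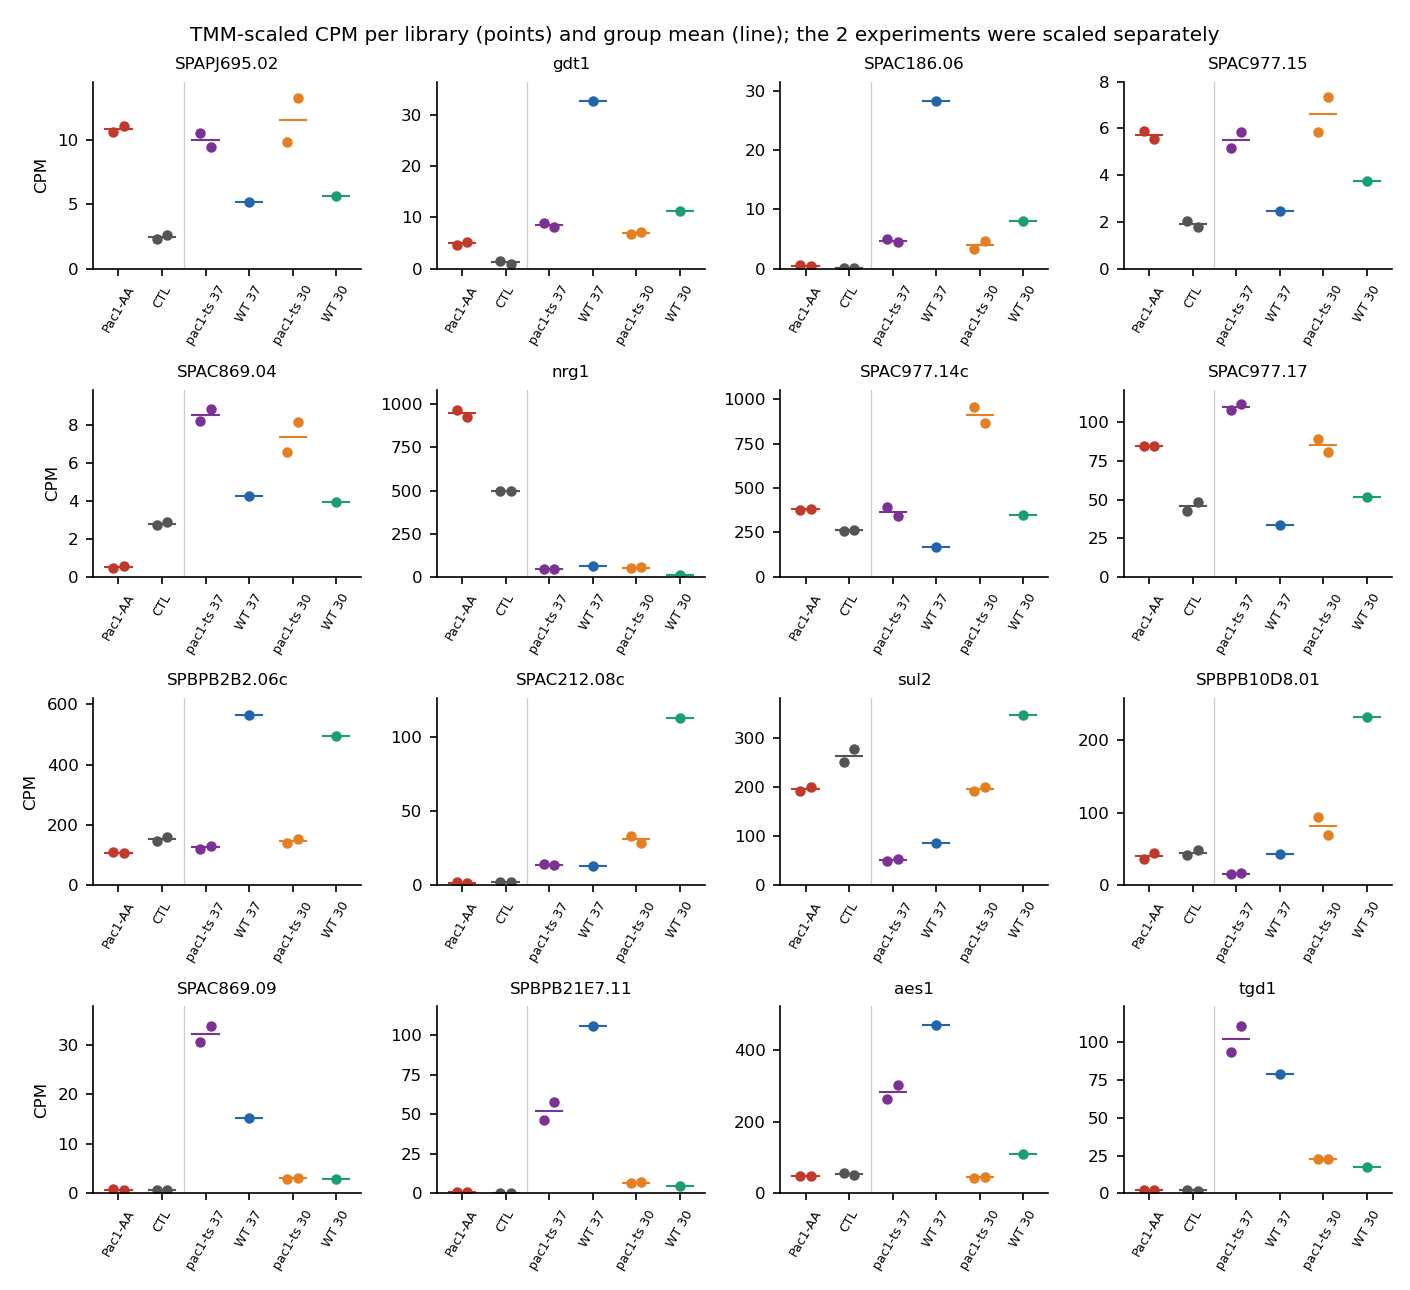
TMM-scaled CPM of 16 of the genes in each library of the anchor-away set (left of the grey line) and the pac1-ts set (right of it); points are libraries and short lines are group means. SPBPB2B2.06c stands at 121 to 152 CPM in the 4 pac1-ts libraries, under both WT libraries (497 and 566 CPM), and gdt1 and SPAC186.06 stand out in WT at 37°C.

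Genes that mark other states moved in the pac1-ts set. Of 10 stress genes, hsp16, hsp9, ctt1 and gpx1 were called higher in pac1-ts at 37°C and hsp16 at 30°C. Their summed level was 16360 and 16790 CPM in pac1-ts at 37°C, against 10410 CPM in WT, and 6098 and 5882 CPM at 30°C, against 6556 CPM in WT. A list of 12 genes for mating and nitrogen starvation also held inv1, the invertase gene, which is not a marker of either state. inv1 was the only gene of this list called at 37°C (higher), and mei2 and isp4 were called higher at 30°C. The list summed to 1840 and 1949 CPM in pac1-ts at 37°C, against 1501 CPM in WT. Of these sums inv1 made 347.5 and 442.7 CPM in pac1-ts, and 121.3 CPM in WT. At 30°C the sums were 2253 and 2100 CPM in pac1-ts, against 1515 CPM in WT. In Pac1-AA edgeR and DESeq2 called 0 genes of either list, with 5 of the 10 and 7 of the 12 at an unadjusted p below 0.05 in edgeR. Of 23 factors listed for subtelomere and heterochromatin silencing, among them clr4, swi6, taz1 and set2, both tools called 0 in all 6 comparisons. In edgeR 1 to 12 of them had an unadjusted p below 0.05. The share of all genes at that unadjusted p is not given here. A call needs a change past 2-fold, and some factors moved by less. In the heat shift in pac1-ts rap1 had a log2 fold change of 0.72 and swi6 of -0.345 (adjusted p = 1.73e-05 and 0.00524, edgeR). In pac1-ts at 30°C clr2 had -0.848, while the median of the 23 was -0.034. The 23 factors summed to 2070 and 2113 CPM in pac1-ts at 37°C, against 2099 CPM in WT. At 30°C they summed to 1895 and 1881 CPM, against 1983 CPM in WT. The part of the stress and mating genes in the results was not tested.

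More of these genes were called in the shift to 37°C, 20 in each strain. In pac1-ts, 12 rose (14.1%), against 6.29% of all genes tested, and 8 fell (9.41%), against 4.8%. In WT, with 1 library against 1 and the spread of the clones, 12 rose as well, against 5.87% of all genes, and 8 fell, against 4.49%. Both strains shared 9 of the 12 rises (75% of each), namely SPAC869.09, mel1, pcm2, aes1, cmt2, SPBPB21E7.10, SPBPB21E7.11, gal10 and tgd1. They shared all 8 falls, namely sul2, SPBPB10D8.01, SPBPB10D8.02c, SPAC212.08c, SPAC212.12, SPAC977.14c, fex1 and SPBPB2B2.08. The strain comparisons and the heat shift use the same libraries, so their values are not independent of each other.

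The 9 rises shared by both strains stood in 3 neighbourhoods. At the left end of chromosome II, aes1 had 264 and 302 CPM in pac1-ts at 37°C, against 43.5 and 46.2 CPM at 30°C (log2 fold change 2.66, SE 0.0966, adjusted p = 3.03e-09, edgeR), and 472 CPM in WT at 37°C, against 111 CPM at 30°C (2.09, SE 0.131). SPBPB21E7.11 had 46.2 and 57.7 CPM in pac1-ts at 37°C, against 6.39 and 7.14 CPM at 30°C (2.94, SE 0.134), and 106 CPM in WT at 37°C, against 4.80 CPM at 30°C (4.46, SE 0.196). For both genes every library at 37°C lay above every library at 30°C. SPBPB21E7.10, which overlaps SPBPB21E7.11 on the other strand, rose by 2.22 in pac1-ts and 2.11 in WT, and cmt2 by 1.15 and 2.53.

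On chromosome I, SPAC869.09, pcm2 and mel1 lie side by side, 77.9 to 81.7 kb from the end. SPAC869.09 had 30.7 and 33.9 CPM in pac1-ts at 37°C, against 2.96 and 3.06 CPM at 30°C (log2 fold change 3.42, SE 0.156, adjusted p = 1.40e-08, edgeR), and 15.3 CPM in WT at 37°C, against 2.86 CPM at 30°C (2.42, SE 0.235). mel1, a melibiase gene, rose by 1.70 in pac1-ts and 1.79 in WT, and pcm2, a protein-L-isoaspartate O-methyltransferase gene, by 1.03 and 1.21. Without clone 2 at 37°C the value of pcm2 in pac1-ts was 1.0, which was not called. In Pac1-AA and CTL, SPAC869.09 stayed between 0.715 and 0.788 CPM.

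On the right of chromosome II, the galactose genes gal7, gal10 and gal1 stand next to tgd1, a nucleotide-sugar 4,6-dehydratase gene. tgd1 had 93.5 and 111 CPM in pac1-ts at 37°C, against 22.5 and 23.1 CPM at 30°C (log2 fold change 2.16, SE 0.0951, adjusted p = 1.08e-08, edgeR), and 79.3 CPM in WT at 37°C, against 17.2 CPM at 30°C (2.20, SE 0.139). gal10, the epimerase, overlaps tgd1 on the opposite strand and rose by 1.06 in pac1-ts and 1.61 in WT, and by 0.99 in pac1-ts without clone 1 at 30°C, which ended the call. gal7 had 107 and 136 CPM in pac1-ts at 37°C, against 29.2 and 33.4 CPM at 30°C (1.95, SE 0.116), and 126 CPM in WT at 37°C, against 69.9 CPM at 30°C, which was not called. With mel1, the gal genes and tgd1 make a group of 5, put together after their values were seen. The description of tgd1 as a dehydratase gene does not name galactose or melibiose use, and tgd1 is among the rises in each strain. Of the 5, 4 rose in pac1-ts and 3 in WT, and their summed level was 322 and 357 CPM in pac1-ts at 37°C, against 116 and 125 CPM at 30°C, and 320 CPM in WT at 37°C, against 149 CPM at 30°C.

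Further rises were called in 1 strain only. nhe1 (1.27) and SPBPB21E7.02c, of the phosphoglycerate mutase family (1.17), were called with gal7 in pac1-ts, and nrg1 (2.53), SPAC186.06 (1.82) and gdt1 (1.55) in WT. The call of SPBPB21E7.02c was lost without clone 1 at 30°C or clone 2 at 37°C. For gdt1 and SPAC186.06 the WT library at 37°C was the high one, with 32.8 and 28.2 CPM, against 11.2 and 7.99 CPM at 30°C. The same 2 genes stood at 8.97 and 8.21 CPM (gdt1) and 4.96 and 4.48 CPM (SPAC186.06) in pac1-ts at 37°C.

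The falls in the heat shift included the sulphur genes, a group that was likewise put together after their values were seen. sul2 had 48.8 and 52.2 CPM in pac1-ts at 37°C, against 193 and 199 CPM at 30°C (log2 fold change -1.96, SE 0.0901, adjusted p = 1.52e-08, edgeR), and 85.3 CPM in WT at 37°C, against 346 CPM at 30°C (-2.02, SE 0.126). SPBPB10D8.01 had 15.96 and 16.03 CPM in pac1-ts at 37°C, against 93.8 and 69.6 CPM at 30°C (-2.35), and 42.6 CPM in WT at 37°C, against 232 CPM at 30°C (-2.45). SPBPB10D8.02c fell by 1.16 in pac1-ts and 2.77 in WT, and by 0.98 in pac1-ts without clone 1 at 30°C, which ended the call. The summed level of the 3 genes was 78.5 and 83.4 CPM in pac1-ts at 37°C, against 323 and 297 CPM at 30°C, and 146 CPM in WT at 37°C, against 698 CPM at 30°C. In Pac1-AA the sum was 235.2 and 256.2 CPM, against 304.9 and 343.9 CPM in CTL, and the log2 fold change of sul2 was -0.43 (adjusted p = 1.33e-04).

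SPAC212.08c had 14.1 and 13.4 CPM in pac1-ts at 37°C, against 33.4 and 28.4 CPM at 30°C (log2 fold change -1.16, SE 0.108, adjusted p = 3.98e-06, edgeR), and 13.2 CPM in WT at 37°C, against 113 CPM at 30°C (-3.10, SE 0.147). SPAC212.12 fell by 1.90 in pac1-ts and 2.97 in WT, and SPBPB2B2.08 by 2.12 and 2.92. SPAC977.14c had 396 and 340 CPM in pac1-ts at 37°C, against 959 and 868 CPM at 30°C (-1.31), and 167 CPM in WT at 37°C, against 348 CPM at 30°C (-1.07). fex1, a fluoride export channel gene, fell by 1.35 and 1.23. Library totals in place of TMM shifted the median of all genes by 0.285 in pac1-ts, where 14 then rose and 6 fell, and by 0.417 in WT, where 16 rose and 6 fell. With totals 4 of these calls fell short, those of SPAC212.08c and SPBPB10D8.02c in pac1-ts and those of fex1 and SPAC977.14c in WT.

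The letters of 3 known motifs were sought on both strands in the 250 bases before each start (RefSeq, ASM294v3). TGACGT stood before 1 of the 9 genes that rose in both strains (SPAC869.09) and 1 of the 8 that fell (SPAC977.14c), and before 5.52% of 5112 protein-coding genes. GAANNTTC or TTCNNGAA, the core of the heat shock element, stood before mel1 and gal10 among the 9 and before SPAC212.08c among the 8, and before 16.7% of all. CCCCT, the stress response element, stood before SPAC869.09 and tgd1 among the 9 and before 0 of the 8, and before 8.26% of all. These are counts of letters and do not show binding.

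The heat shift differed between the strains for 4 of the 85 genes (interaction term, edgeR). The difference, pac1-ts minus WT on the log2 scale, was -2.74 for nrg1 (SE 0.183, adjusted p = 7.99e-05), -1.52 for SPBPB21E7.11 (SE 0.254, adjusted p = 0.00811), 1.61 for SPBPB10D8.02c (SE 0.203, adjusted p = 0.00228) and 1.94 for SPAC212.08c (SE 0.181, adjusted p = 0.000355). Among all genes tested, 0.713% had a higher and 0.282% a lower interaction. nrg1 had 47.3 and 45.8 CPM in pac1-ts at 37°C, against 48.7 and 59.1 CPM at 30°C, and 65.7 CPM in WT at 37°C, against 11.4 CPM at 30°C. Each of the 4 rests on 1 WT library per temperature. Without one of the pac1-ts libraries 7 to 9 genes passed. With the clone as a block, 8 genes passed, with gdt1 (-1.24), SPAC186.06 (-1.56), cmt2 (-1.37) and gal7 (1.09) added.

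The sum over the genes of an end moved with its most abundant gene in Pac1-AA. For the right end of chromosome II the sum was 1233 ± 28.7 CPM in Pac1-AA and 806.6 ± 12.2 CPM in CTL (SD, n = 2 each), of which nrg1 made 77.4% in Pac1-AA replicate 1 and 62.1% in CTL replicate 1. At the left end of chromosome I it was 688.4 ± 8.04 CPM in Pac1-AA and 516.0 ± 6.78 CPM in CTL, with SPAC977.14c at 55.2% and 50.7%. At the right end of chromosome I it was 996.6 ± 18.6 CPM in Pac1-AA and 1160 ± 38.1 CPM in CTL, and at the left end of chromosome II 389.2 ± 11.6 and 557.1 ± 13.5 CPM. The ranges of Pac1-AA and CTL did not overlap at any end, and 2 against 2 libraries cannot give an exact two-sided permutation p below 0.333. The sum was higher at one end of each chromosome and lower at the other. In pac1-ts at 37°C the ratio to WT was 1.69 at the left end of chromosome I, 0.94 at its right end, 0.672 at the left end of chromosome II and 0.549 at its right end, and at 30°C 1.68, 0.73, 0.483 and 0.499.

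**Figure D4:**
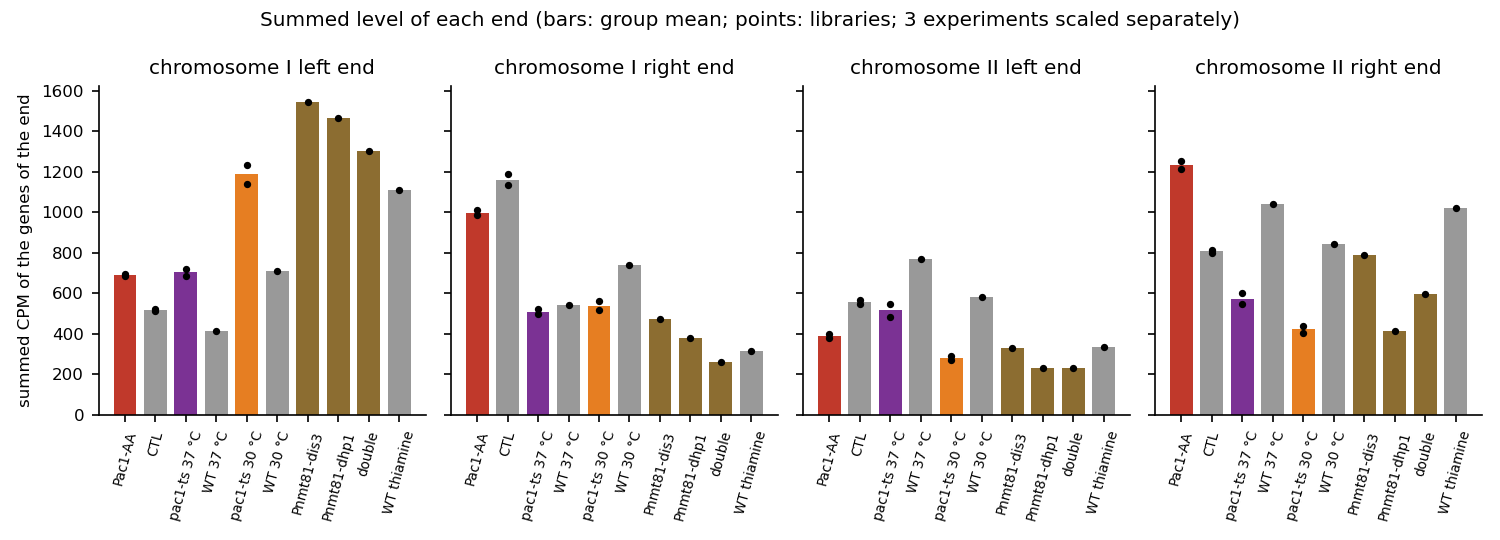
Summed CPM of the genes of each chromosome end in every library (points), with bars at the group mean; the 3 sets were scaled separately, and "double" is the library labelled Pnmt81-dhp1 Pnmt81-dis3. The left end of chromosome I stands above its control in Pac1-AA as well as in pac1-ts at 37°C and 30°C, and both ends of chromosome II stand below it in pac1-ts.

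The last set asked what changes when exonucleases are repressed. It has 1 library per strain, so ratios carry counting intervals only (95% Clopper-Pearson, which cover counting error alone) and no p-values. Of 66 genes with at least 20 counts over the 4 libraries, 23 were past 2-fold higher in the library labelled Pnmt81-dis3 than in WT (34.8%), against 25.1% of all 6342 genes with that count, and 15 past 2-fold lower (22.7%), against 19.7%. In the library labelled Pnmt81-dhp1, 13 were higher (19.7%), against 17.7%, and 21 lower (31.8%), against 11.2%. In the one labelled Pnmt81-dhp1 Pnmt81-dis3, 18 were higher (27.3%), against 25.9%, and 20 lower (30.3%), against 19.1%. The 3 comparisons share the WT library.

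The largest differences were in 3 genes of the Vel1p domain family, at 3 of the 4 ends. SPAC977.05c had 2 counts in the library labelled Pnmt81-dis3, 3 in Pnmt81-dhp1 and 0 in Pnmt81-dhp1 Pnmt81-dis3, against 635 in WT in thiamine. SPBC1348.06c had 0, 0 and 0, against 218 in WT, and SPBPB2B2.15 had 0, 2 and 0, against 217 in WT. Against a floor of 3 counts per library, SPBC1348.06c was at least 97.3-fold lower in the library labelled Pnmt81-dis3, at least 101-fold lower in Pnmt81-dhp1 and at least 83.1-fold lower in Pnmt81-dhp1 Pnmt81-dis3. SPAC977.05c was at least 242-fold lower in the last. The log2 ratio of SPAC977.05c was -8.41 in the library labelled Pnmt81-dis3 (interval -11.78 to -6.87) and -7.98 in the one labelled Pnmt81-dhp1 (interval -10.48 to -6.64). The summed level of the 3 genes was 162 CPM in WT in thiamine, and 2.87 CPM or less in every other library of the series. WT in thiamine was thus the library that stood apart.

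Reads of these genes can hardly be told apart, as their coding sequences show. The first and last 60 coding bases are given (RefSeq, ASM294v3, each in the direction of its gene: chrI:36323-36382 and chrI:35768-35827, minus strand, for SPAC977.05c, chrII:16533-16592 and chrII:15981-16040, minus strand, for SPBC1348.06c, and chrII:4496373-4496432 and chrII:4496925-4496984, plus strand, for SPBPB2B2.15). Capitals mark the bases that differ.
SPAC977.05c first: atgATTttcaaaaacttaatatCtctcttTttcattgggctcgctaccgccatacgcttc
SPBC1348.06c first: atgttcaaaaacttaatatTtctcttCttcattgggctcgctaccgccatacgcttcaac
SPBPB2B2.15 first: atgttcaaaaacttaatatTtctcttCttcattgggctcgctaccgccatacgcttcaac
SPAC977.05c last: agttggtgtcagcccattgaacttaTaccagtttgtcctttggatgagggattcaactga
SPBC1348.06c last: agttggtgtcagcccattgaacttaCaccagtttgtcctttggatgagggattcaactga
SPBPB2B2.15 last: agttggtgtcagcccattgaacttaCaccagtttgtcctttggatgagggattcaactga
The chromosome II genes are identical over all 612 coding bases, as well as over 482 bases upstream and 25 bases downstream. SPAC977.05c has 615 coding bases and differs by 3 added bases and by the substitutions C23T, T30C and T581C (its own base first, positions from the A of its ATG). Of its 50-base stretches 11.5% were unique in the genome, and none of those of the other pair. A read that lies within the shared sequence cannot be given to either gene of the identical pair. Such reads are not counted by the default of the counting tool, and the number lost was not tested.

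tlh2 moved in the same direction, with 25, 9 and 27 counts in the libraries labelled Pnmt81-dis3, Pnmt81-dhp1 and Pnmt81-dhp1 Pnmt81-dis3, against 207 in WT. Its log2 ratios were -3.45 (interval -4.13 to -2.87), -4.92 (-6.14 to -4.04) and -3.11 (-3.77 to -2.55). sul2 had 202, 379 and 97 counts, against 764 in WT, and SPBPB2B2.06c 884, 566 and 281, against 1826 in WT. SPBPB2B2.08 had 54, 34 and 29 counts, against 220 in WT. WT in thiamine was the highest of the 4 for each of these genes. Its strain also differs from Pnmt81-dhp1 in mating type and ade6 allele, and strain and repression cannot be told apart. The 23 silencing factors summed to 7555, 2833 and 7608 CPM in the Pnmt81 libraries, against 3683 CPM in WT. The 12 genes of the mating and nitrogen starvation list, inv1 included, summed to 522, 329 and 535 CPM, against 713 CPM in WT. The part of both lists was not tested.

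Other genes were higher in the Pnmt81 libraries. SPAC750.01, an aldo-keto reductase gene 22.4 kb from the right end of chromosome I, had 1231, 455 and 278 counts in the libraries labelled Pnmt81-dis3, Pnmt81-dhp1 and Pnmt81-dhp1 Pnmt81-dis3, against 113 in WT (log2 ratios 3.02, 1.53 and 1.10, with intervals above 0). pcm2 had 270, 29 and 142 counts, against 11 in WT, with log2 ratios of 4.14 (interval 3.33 to 5.22), 0.89 (-0.12 to 2.08) and 3.44 (2.61 to 4.53). mel1 had 192, 52 and 77 counts, against 21 in WT. Both neighbours were thus highest in the library labelled Pnmt81-dis3. SPAC869.01 had 48, 18 and 49 counts, against 1 in WT, where the ratio of the first has an interval of 2.62 to 10.50 on the log2 scale. fub2, of the PI31 family of proteasome regulators, had 144, 135 and 137 counts, against 16 in WT. Further genes with 0 counts in WT included 3 on the right of chromosome I. SPAC186.07c had 14, 1 and 7 counts and SPAC186.02c 12, 5 and 11, both hydroxyacid dehydrogenase genes with 0 in WT, and SPAC186.02c was at least 2.99-fold higher in the library labelled Pnmt81-dis3. SPAC869.03c had 8, 23 and 3 counts, against 0 in WT, and was at least 5.53-fold higher in the library labelled Pnmt81-dhp1. yhb1 was highest in the library labelled Pnmt81-dhp1, with 806 counts, against 108 in WT (log2 ratio 2.42, interval 2.14 to 2.73), while the other Pnmt81 libraries had 190 and 218 counts.

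The library labelled Pnmt81-dhp1 Pnmt81-dis3 was also set against each single strain. Against the library labelled Pnmt81-dis3, 2 of the 66 genes exceeded 2-fold upward (3.03%), against 7.27% of all genes, and 16 past 2-fold lower (24.2%), against 3.26%. Among the lower ones, SPAC750.01 had 36.9 CPM in the library labelled Pnmt81-dhp1 Pnmt81-dis3, against 140 CPM in the one labelled Pnmt81-dis3, and nrg1 14.2 CPM, against 52.5 CPM. gdt1 had 9.82 CPM, against 24.5 CPM. SPAC750.06c, an uncharacterized gene with a near-identical copy, had 0 counts, against 24 counts, and was at least 6.83-fold lower. Against the library labelled Pnmt81-dhp1, 18 were higher (27.3%), against 23.6% of all genes, and 12 lower (18.2%), against 18.4%. SPAC977.14c, the most abundant gene of the set, had 1295, 1241 and 1105 CPM in the 3 Pnmt81 libraries, against 781 CPM in WT.

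**Figure D5:**
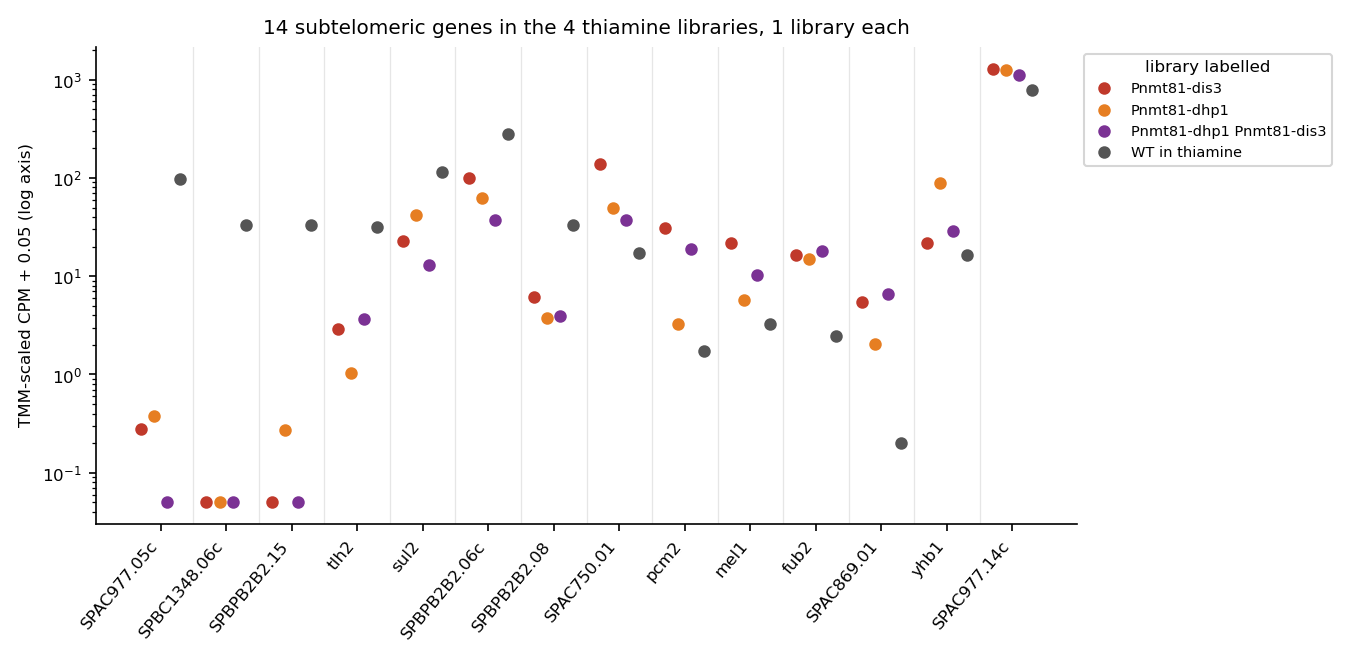
TMM-scaled CPM + 0.05 (log axis) of 14 of the genes in the 4 thiamine libraries, 1 point per library. The 3 genes of the Vel1p domain family and tlh2 are high in WT in thiamine alone, at 31.4 to 96.4 CPM, and the genes from SPAC750.01 to SPAC977.14c are lowest there.

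The 3 helicase or helicase-like genes, tlh1, tlh2 and SPAC212.06c, had a median log2 fold change of 1.08 in pac1-ts at 30°C and of 1.03 at 37°C, with all 3 above 0, and only tlh2 at 30°C was called. Counts of these genes leave out fragments that map to several places, so their levels are uncertain. Over the 6 tested comparisons, 89 of the 132 genes were tested in at least 1, and 38 were called in at least 1, of which 35 have no near-identical copy. 12 genes were called in 3 or more, 43 were never tested, and 94 were never called. SPAC212.08c, SPAC977.14c, SPBPB10D8.01, SPBPB10D8.02c and SPBPB21E7.11 were called in 4. The same counts were not made over all genes, and comparisons within a set share libraries. These numbers therefore do not show whether subtelomeric genes were called in more comparisons than others. A count that misses the filter or the threshold does not show that a gene stayed the same.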

How the data were processed

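The authors deposited 1 table of raw counts, whole numbers of fragments per gene and library, not normalized. According to the methods they trimmed reads (Trimmomatic), mapped them (HISAT2, ASM294v2) and counted by strand (featureCounts). All 14 count columns were mapped to libraries. The pac1-ts libraries used a Zymo-Seq RiboFree kit, the others Illumina TruSeq after RiboZero. The members and gene lists were chosen with earlier results of these data known.

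The test was the quasi-likelihood F-test of edgeR (4.0.16, under R 4.3.3) with TMM factors, after filterByExpr (minimum count 10), p-values being adjusted by Benjamini-Hochberg, with strain as the only term in the anchor-away set, and strain, temperature and their interaction over all 6 pac1-ts libraries. In simulated data with 200 changed genes, edgeR called 200 in the anchor-away design, which ran on 6319 genes, and 199 in the pac1-ts design, on 6717 genes, with 0 false calls. The simulated libraries were independent, with the same spread for all genes. The changed genes were not drawn from those of lowest level, and their changes were larger than many of those called here. The simulation therefore does not show how many of the calls given here are right. FPKM used the deposited gene lengths. Thiamine ratios are of TMM-scaled counts plus 0.5. In the shallowest library 3 counts are 0.455 CPM. The pac1-ts replicate numbers name clones, whose libraries deviated together (correlation 0.51 over genes). With the clone as a block, the spread of the strain comparisons leaves out the difference between the clones. Copies were found with blastn 2.17.0 (95% identity over at least 50% of the length). Named genes were those with the largest changes per comparison (up to 10 rises and 5 falls, without overlap, and up to 5 each way per thiamine comparison), the 3 with the highest FPKM in CTL per end, and called genes with a symbol. Other genes with values, such as SPAC977.17 in Pac1-AA, were named after their values were seen, as were the sulphur, galactose and Vel1p groups. Alternatives were DESeq2 1.42.0, RLE factors or library totals, no filter, adjusted p below 0.05 and the replicate block. Others were an additive model, members without copies, and each library left out, except a WT library in the comparisons that use it.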

Additional observations from a re-analysis of the deposited data

Results flagged for a closer look

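The response to 37°C differed between pac1-ts and WT in 4 subtelomeric genes, by the interaction term of edgeR's fit. The difference, pac1-ts minus WT on the log2 scale, was -2.74 for nrg1, -1.52 for SPBPB21E7.11, 1.61 for SPBPB10D8.02c and 1.94 for SPAC212.08c. For nrg1 the shift itself was -0.21 in pac1-ts and 2.53 in WT, and for SPBPB21E7.11 2.94 and 4.46. For SPBPB10D8.02c it was -1.16 in pac1-ts and -2.77 in WT, and for SPAC212.08c -1.16 and -3.10. All 4 rest on the same 2 WT libraries. The WT library at 30°C was the lowest of the 6 for nrg1, with 11.4 CPM, and the highest for SPBPB10D8.02c (120 CPM) and SPAC212.08c (113 CPM). The cause was not tested.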

How the results depend on the processing

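Called genes numbered 6 in Pac1-AA (4 to 7 when a library was left out), 14 in pac1-ts at 30°C (12 to 20), 13 at 37°C (13 to 20), 20 in the heat shift in pac1-ts (17 to 21) and in WT (20 each time), and 4 in the interaction (7 to 9). The replicate block gave 10 in Pac1-AA, where numbers were shared by label only (correlation 0.03) and SPAC186.06 and ght3 were among those added, 20 at 37°C and 8 in the interaction. Each WT group held 1 library, so no comparison was refitted without a WT library that it uses. The refits of the heat shift in WT left out pac1-ts libraries only. Those can change the shared spread and scaling but not the WT counts. The 20 genes each time therefore do not show how far this result depends on its WT libraries. An adjusted p below 0.05 gave 22 at 30°C, 20 at 37°C and 8 in the interaction. DESeq2, RLE factors, library totals, no filter, the additive model and the removal of copies kept each of these counts within 1.5 times, as did the alternatives for the thiamine counts. Under library totals the log2 ratio of summed levels in Pac1-AA moved to 0.522 at the left end of chromosome I (from 0.416), -0.114 at its right end (-0.22), -0.412 at the left end of chromosome II (-0.518) and 0.718 at its right end (0.613), and in pac1-ts at 37°C to 0.685 (0.758) and -0.162 (-0.089) at the left and right ends of chromosome I. No alternative reversed a result. In the additive model SPAC212.08c, SPBPB10D8.02c, cmt2, nrg1, pan5 and gal7 lost their calls at 30°C, and SPAC186.03, ght3, SPAC869.09, ght7 and SPBPB21E7.11 at 37°C. The interaction of SPBPB21E7.11 was not called with library totals or RLE factors. Low counts, near-identical copies and 1 WT library per temperature limit these results.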
